A study of Homo sapiens with 8 samples.

Results

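The splicing of 6 genes of the JNK pathway was described in JSL1, a monoclonal line derived from the human T lymphocyte line Jurkat. The genes were MAP3K7 and MAP3K4, MAP2K7 and MAP2K4, and MAPK8 and MAPK9, and every local splicing variation (LSV) listed under their symbols was taken. An LSV is a set of junctions that all leave 1 exon (a source LSV) or all enter 1 exon (a target LSV), and its values are the shares of those junctions. The 6 genes held 71 of the 91729 LSVs in PMA-treated cells and 70 of the 91480 LSVs in unstimulated cells. The tables covered 11431 gene IDs in all. All 70 LSVs of the unstimulated table were also in the other table, with the same junctions.

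Strand-specific sequencing of polyadenylated RNA had been done in 4 groups of 2 libraries, 8 in all. They were PMA-treated CELF2-depleted cells, PMA-treated control cells, unstimulated CELF2-depleted cells and unstimulated control cells. The phorbol ester PMA, which switches on protein kinase C, was given at 20 ng/mL for 48 hours. CELF2 is an RNA-binding protein that regulates splicing, and it was depleted with stably integrated, doxycycline-inducible short hairpin RNAs. The sources used here do not state if the controls had a hairpin or were given doxycycline, or if libraries of 1 group were separate cultures, so differences between the libraries of a group may be technical. Libraries of a group were pooled by the authors into 1 value, so the spread between libraries and the reads behind a share are unknown. The tables hold no expression values, so neither the extent of the depletion nor the level of any of the 6 genes could be checked. Of 9 T cell markers, 7 had an LSV in each table, against 1 of 4 B cell markers and none of the 6 myeloid and erythroid markers. Having an LSV shows that spliced reads of a gene were present, and not how many. In bulk RNA, a lower share in every cell and fewer cells using a junction cannot be told apart.

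The JNK cascade runs in 3 tiers. A MAP3 kinase phosphorylates the MAP2 kinases MKK4 and MKK7, and both phosphorylate the JNK kinases, which act on JUN and other transcription factors. MKK4 also acts on p38, whereas MKK7 is specific for JNK. In T cells the pathway is engaged by the antigen receptor with its costimulus, and phorbol esters imitate part of that signal. Earlier work in this cell line described skipping of an early exon of MAP2K7 on activation, with an effect on how MKK7 binds JNK.

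The exon the results turn on most is the 48-nt exon of MAP2K7 at chr19:7970693-7970740 on the plus strand (hg19, as in the authors' tables). It matched exon 2 of the GENCODE 29 transcript MAP2K7-203 in its own length and in both flanking introns of 1739 and 3899 nt. It is coding throughout and adds 16 codons without a stop. Both messages are shown from GENCODE 29 with 15 bases of each neighbouring exon, and capitals mark the exon.
MAP2K7 included: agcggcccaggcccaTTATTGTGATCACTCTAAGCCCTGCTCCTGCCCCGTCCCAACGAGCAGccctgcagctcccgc
MAP2K7 skipped: agcggcccaggcccaccctgcagctcccgc

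A second exon is the 150-nt coding exon of MAP3K4 at chr6:161519310-161519459 on the plus strand, exon 17 of MAP3K4-203. It adds 50 codons and holds an unbroken run of 11 CTG triplets. Of 1144 internal exons of 150 nt in GENCODE 29 coding transcripts, only this 1 (0.0874%) held a run that long, searched on the transcribed strand. The next longest run was of 4. The count covers this exon length and the repeat that this exon holds alone, so it is a description and not a test. The third is the 81-nt coding exon of MAP3K7 at chr6:91254271-91254351 on the minus strand, exon 12 of MAP3K7-202, which adds 27 codons. Both are shown with the exon in capitals between 15 bases of its neighbours.
MAP3K4 included: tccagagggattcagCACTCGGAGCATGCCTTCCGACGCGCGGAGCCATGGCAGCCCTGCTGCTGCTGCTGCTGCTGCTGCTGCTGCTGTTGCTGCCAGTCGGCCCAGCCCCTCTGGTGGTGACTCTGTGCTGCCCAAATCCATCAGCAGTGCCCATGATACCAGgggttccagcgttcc
MAP3K7 included: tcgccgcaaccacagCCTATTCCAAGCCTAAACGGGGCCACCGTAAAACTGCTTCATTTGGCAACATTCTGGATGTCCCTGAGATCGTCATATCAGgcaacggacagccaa

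MAPK8 and MAPK9, which encode JNK1 and JNK2, each use 1 of a pair of 72-nt coding exons that take each other's place. The choice alters the kinase domain and is known to alter which substrates JNK binds. In MAPK8 the upstream exon lies at chr10:49632131-49632202 and the downstream exon at chr10:49632557-49632628, both on the plus strand. In MAPK9 the upstream exon lies at chr5:179674855-179674926 and the downstream exon at chr5:179674439-179674510, both on the minus strand. Capitals mark the bases that differ from the other exon of the same gene.
MAPK8 upstream: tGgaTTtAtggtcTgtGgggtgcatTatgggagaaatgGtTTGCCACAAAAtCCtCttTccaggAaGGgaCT
MAPK8 downstream: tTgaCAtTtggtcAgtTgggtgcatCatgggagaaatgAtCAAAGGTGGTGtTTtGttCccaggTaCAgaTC
MAPK9 upstream: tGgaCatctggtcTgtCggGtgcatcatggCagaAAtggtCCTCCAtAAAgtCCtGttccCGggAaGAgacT
MAPK9 downstream: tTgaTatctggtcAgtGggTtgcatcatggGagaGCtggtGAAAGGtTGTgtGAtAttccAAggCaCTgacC

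The 2 exons of MAPK8 differed at 28 of 72 bases and those of MAPK9 at 26. Exons in the same position were closer to each other across the genes, with 15 differing bases between the upstream exons and 16 between the downstream exons. The JNK genes share a further choice, between acceptors 5 bases apart at the last exon. With the extra bases CACAG the reading frame ends after 14 coding bases, and without them it runs for 143 in MAPK8 and 140 in MAPK9, which gives the short and long JNK proteins. The messages are shown with 15 bases of the exon before and 9 bases after, and capitals mark the extra bases.
MAPK8 short: agccctctcctttagCACAGgtgcagcag
MAPK8 long: agccctctcctttaggtgcagcag
MAPK9 short: aagatcagccttcagCACAGatgcagcag
MAPK9 long: aagatcagccttcagatgcagcag

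Depletion of CELF2 was associated with called changes in MAP2K7 in both states, in MAP3K4 with PMA, and in none of the other 4 genes. The authors' deposited tables give each junction a posterior probability that its share changed by 20 points or more, which is not a p-value. An LSV with a junction at 0.95 or above was called. With PMA, 4 of the 71 LSVs of the 6 genes were called, beside 1.87% of all LSVs. Without PMA, 2 of 70 were called, beside 0.985%. The 6 genes were chosen with earlier results of these data known, so these counts are a description and not a test. The called LSVs were the source and target LSV of 1 exon in each gene, so the counts stand for 2 exons with PMA and for 1 without. The median over LSVs of the largest difference between depleted and control shares was 1 point with PMA and 0.8 points without, against 0.8 and 0.5 points over all LSVs of each table. Of the LSVs of these genes, 51 of 71 with PMA and 55 of 70 without differed by under 5 points. Those that differed by 10 points or more made up 15.5% with PMA and 12.9% without, beside 14% and 10.6% of all LSVs.

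**Figure D1:**
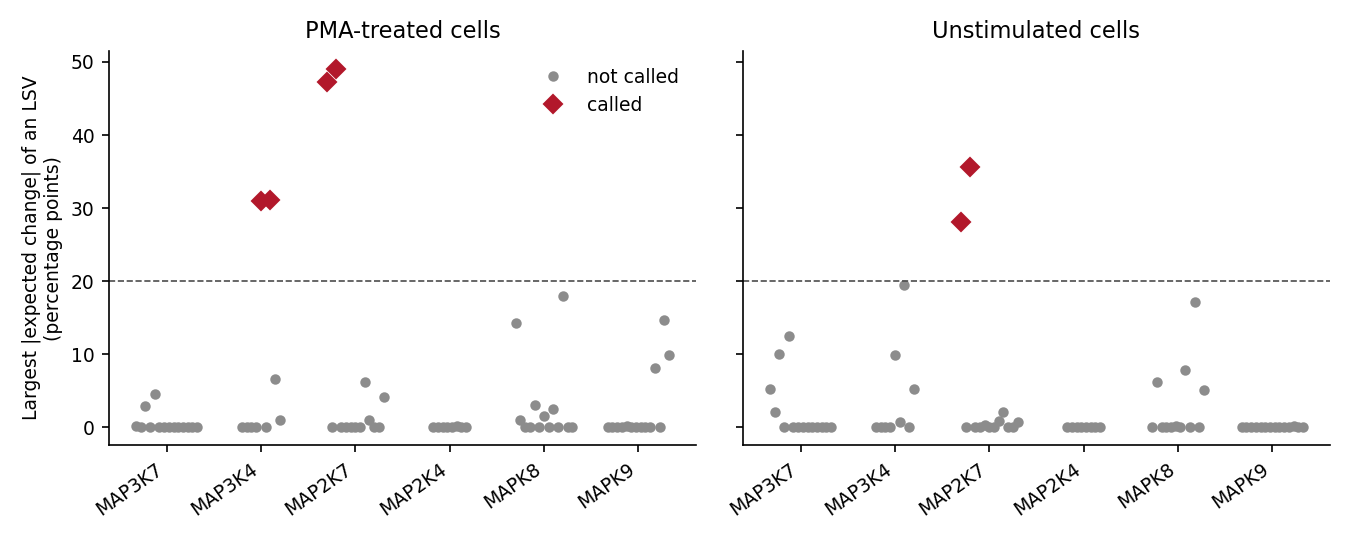
Each point is 1 LSV of the 6 genes, placed by its largest absolute expected change between depleted and control cells in the authors' deposited tables (vertical axis, percentage points). Diamonds mark called LSVs and the dashed line 20 points. Called LSVs appear in MAP3K4 and MAP2K7 with PMA, and in MAP2K7 alone without PMA.

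Among the MAP3 kinases, MAP3K7 encodes TAK1, which receives signals from cytokine and antigen receptors and activates both MAP2 kinases of the pathway. Its 81-nt exon was included at 9.8% in depleted and 2.7% in control PMA-treated cells by the source LSV, and at 15.9% and 9.1% by the target LSV. Without PMA the source LSV gave 14.5% in depleted and 26.8% in control cells, and the target LSV 18.6% and 30%. Depleted cells lay above control cells with PMA and below them without PMA, in both LSVs. No change was called, and the highest posterior probability of any junction of this gene in the authors' deposited tables was 0.104. The widest gap between groups was that between control cells with and without PMA. Averaged over both LSVs, inclusion was 5.90% with PMA and 28.4% without PMA in control cells, a difference of -22.5 points. In depleted cells it was 12.9% with PMA and 16.6% without PMA, a difference of -3.70 points.

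The effect of PMA was taken as a difference between the authors' 2 tables, which were quantified separately and carry no probability for it, so it was not tested for any exon. To set it in context, every exon seen from both sides with the same skipping junction was used, where source and target shares lay at most 20 points apart in each group. There were 26783 such exons, 25 of them in the 6 genes. In depleted cells 1 of the 25 differed by 10 points or more between PMA and no PMA, beside 3.78% of all exons. In control cells 2 of the 25 did, beside 4.64%. Over all exons, 84 in control cells had a difference with PMA at or below that of the MAP3K7 exon, this exon included. Only exons of the 6 genes that differed by 10 points or more in some comparison were ranked, so the rank is a description. A 116-nt coding exon of MAP3K7 was included at 82.8% to 97.3% in all groups by either LSV. The other LSVs of the gene varied less, and 12 of its 14 spanned under 10 points over the 4 groups. Over all genes 67365 of 87517 LSVs listed in both states did. In MAP3K4 5 of 9 did and in MAPK8 7 of 12, which are lower shares than that of all genes.

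MAP3K4 encodes MEKK4, which responds to GADD45 proteins and acts on both the JNK and the p38 branch. Its 150-nt exon fell with CELF2 depletion in PMA-treated cells. By the source LSV inclusion was 4.3% in depleted and 34.6% in control cells with PMA, and by the target LSV it was 9.2% and 39.6%. The expected change in the authors' deposited table was -31 points with a posterior probability of 0.994 in the source LSV, and -31.1 points with 0.992 in the target LSV. Depleted cells with PMA had the lowest share of the 4 groups in both LSVs. Without PMA the source LSV gave 20.7% in depleted and 35.7% in control cells, and the target LSV 13.9% and 33.7%. This difference had the same sign but was not called, with posterior probabilities of 0.238 and 0.654 in the authors' deposited table. Whether the effect of depletion differed between the states was not tested. Averaged over both LSVs, inclusion in depleted cells was 10.6 points lower with PMA (6.75%) than without (17.3%). In control cells the difference between PMA (37.1%) and no PMA (34.7%) was 2.40 points.

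An upstream exon of MAP3K4 ends at either of 2 donors 12 bases apart, which adds or removes 4 codons in frame. Both messages are shown from GENCODE 29, since both were used in every group, with 15 bases on either side and the 12 bases (chr6:161514872-161514883, plus strand) in capitals.
MAP3K4 longer: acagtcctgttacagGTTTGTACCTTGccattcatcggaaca
MAP3K4 shorter: acagtcctgttacagccattcatcggaaca
The shorter form had the larger share in every group. The longer form had a share of 35.4% in depleted and 33.2% in control cells with PMA, and of 46.0% in depleted and 40.1% in control cells without PMA. All 4 values lay within 13 points, and no change was called. A 91-nt exon nearer the 3′ end of MAP3K4 lay between 2.6% and 2.9% in depleted cells, near 2.5%, the lowest share that the authors' estimate takes. In control cells it had 13.4% by the source LSV and 8.6% by the target LSV with PMA, and 5.5% and 12.3% without PMA. Control cells were above depleted cells in both LSVs and both states, without a call. The authors' expected changes lay between -6.61 and -0.0687 points.

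Among the MAP2 kinases, the 48-nt exon of MAP2K7 rose with CELF2 depletion in both states. With PMA the source LSV gave 78.2% inclusion in depleted and 37.0% in control cells, and the target LSV gave 78.5% and 30.7%. Without PMA the source LSV gave 82.6% in depleted and 58.9% in control cells, and the target LSV 81.8% and 47.0%. Both groups of depleted cells lay above both groups of control cells in either LSV. The expected change with PMA in the authors' deposited table was 42.2 points by the source LSV and 49.1 points by the target LSV, with posterior probabilities that round to 1. Without PMA it was 24.3 points in the source LSV, where the authors' deposited table gave posterior probabilities of 0.925 for that junction and 0.99 for the skipping junction. For the target LSV without PMA the authors' deposited table gave 35.6 points and a posterior probability that rounds to 1.

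Averaged over both LSVs, inclusion was 44.5 points higher in depleted than in control cells with PMA and 29.3 points higher without PMA. Over the 26783 exons, 22 with PMA and 30 without PMA were as far or farther in that direction, the MAP2K7 exon included. The exon was picked for the highest posterior probability of depletion in MAP2K7, so its rank is a description and not a test. Of all exons, 6.38% with PMA and 4.11% without PMA differed by 10 points or more in either direction between depleted and control cells, and of the 25 exons of the 6 genes 3 did in each state. PMA went with less inclusion in control cells, at 33.9% with PMA and 53.0% without, a difference of -19.1 points. In depleted cells inclusion was 78.4% with PMA and 82.2% without, a difference of -3.85 points. The order of the groups was thus unstimulated depleted, PMA-treated depleted, unstimulated control and PMA-treated control cells. With the spread between libraries unknown, it could not be told which neighbours in this order differ beyond it.

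**Figure D2:**
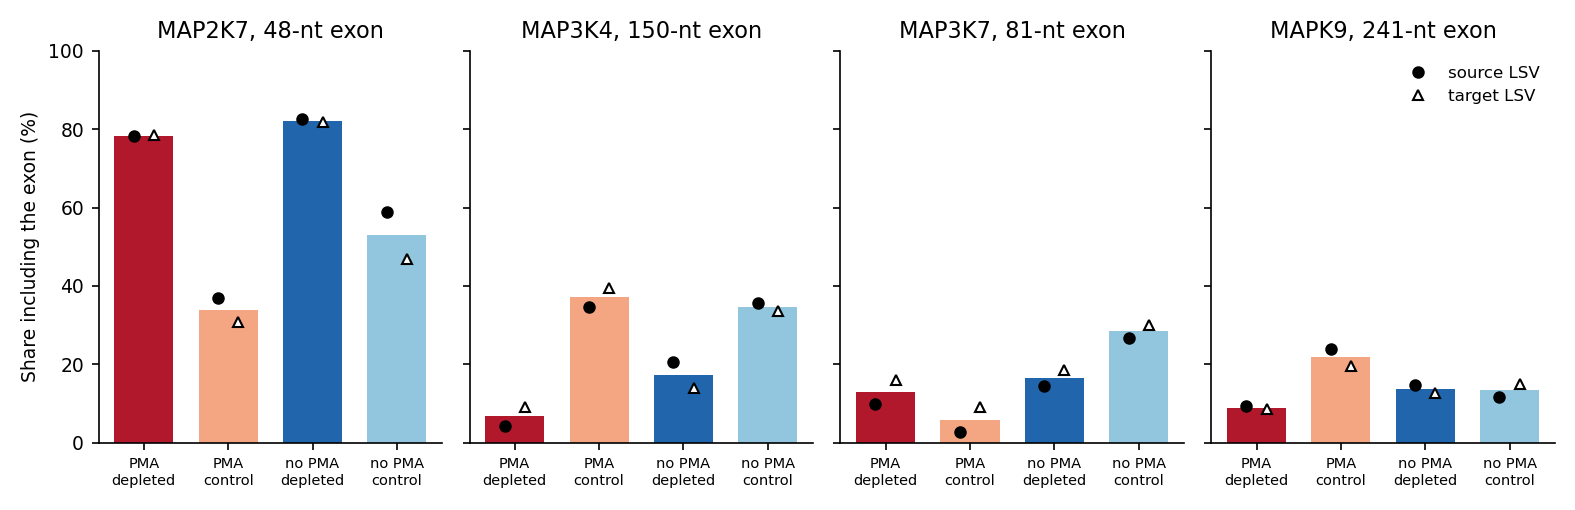
Inclusion (percent) of 4 alternative exons in PMA-treated depleted, PMA-treated control, unstimulated depleted and unstimulated control cells. Bars are means of the authors' pooled shares from the source LSV (circles) and the target LSV (triangles), with no error over libraries. The MAP2K7 exon is higher in depleted cells in both states, the MAP3K4 exon is lower, and the MAP3K7 exon is above control with PMA and below it without.

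The remaining LSVs of MAP2K7 varied less, as 10 of its 13 spanned under 10 points over the 4 groups. Over all genes 67365 of 87517 did, a similar share. Acceptors 21 bases apart keep the reading frame. The acceptor that adds the bases had shares of 10.2% in depleted and 6.7% in control cells with PMA, and of 2.5% and 7.2% without PMA, by the source LSV. Retention of the last intron had 9.4% in depleted and 2.6% in control cells with PMA, and 7.1% and 2.5% without PMA, by the target LSV. By the source LSV it had 3.4% in depleted and 2.5% in control cells with PMA, and 2.6% and 2.9% without PMA. The LSVs differed in direction without PMA, and nothing was called. A share of 2.5% is the lowest and 97.5% the highest value in either table, so shares at these bounds are limits of the authors' estimate rather than measured levels.

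MAP2K4 encodes MKK4, the other MAP2 kinase of the pathway. It had 8 LSVs in each table, all of which spanned under 10 points over the 4 groups, beside 67365 of 87517 over all genes. The widest was the source LSV of exon 2 of MAP2K4-201, whose junction that skips exon 3 had 10.8% in depleted and 9.5% in control cells with PMA, and 2.6% and 4.7% without PMA. Inclusion of the 175-nt exon 3 by the source LSV was 89.2% in depleted and 90.5% in control cells with PMA, and 97.4% and 95.3% without PMA. Both groups with PMA were lower than both without, by under 9 points. The target LSV of exon 3 gave the junction from exon 2 as 91.1% in depleted and 94.1% in control cells with PMA, and 97.1% and 95.6% without PMA. In that LSV the junction that skips exon 2 had 7.7% in depleted and 4.4% in control cells with PMA, and 2.6% and 4% without PMA. The target LSV of exon 4 gave the junction from exon 3 as 92.6% in depleted and 94.8% in control cells with PMA, and 97.5% and 97.2% without PMA. These LSVs had the same order, with both groups with PMA lower in the main junction. For the 33-nt exon 2 of another transcript, MAP2K4-202, 0 listed junctions had the length of either of its introns. The largest expected change in MAP2K4 in the authors' deposited tables was 0.206 points with PMA and 0.0376 points without.

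Among the JNK kinases, MAPK8 used mostly the downstream 72-nt exon. By the target LSV the upstream exon had 9.1% in depleted and 23.6% in control cells with PMA, and 4.5% in depleted and 19.2% in control cells without PMA. The downstream exon had 89.6% in depleted and 71.9% in control cells with PMA, and 88.5% and 71.5% without PMA. By the source LSV the upstream exon had 12.4% in depleted and 18.6% in control cells with PMA, and 8.5% and 14.9% without PMA. Depleted cells had less of the upstream and more of the downstream exon in both LSVs and both states, with 1 pooled value per group. None of these differences was called. The downstream junction of the target LSV had expected changes of 18.0 points with PMA and 17.2 points without, with posterior probabilities of 0.512 and 0.440 in the authors' deposited tables. That of the source LSV had smaller expected changes of 2.59 points with PMA and 7.87 points without, with posterior probabilities of 0.00361 and 0.0197.

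MAPK9 used the downstream exon at the upper bound in all 4 groups, at 97.4% to 97.5% in either LSV, and the upstream exon at the lower bound of 2.5%. In MAPK8 the shares of these exons differed between groups, though no change was called. In MAPK9 they did not differ, as far as these values resolve it. The short C-terminal form of MAPK8 had a share of 56.2% in depleted and 55.2% in control cells with PMA, and of 61.3% and 51.8% without PMA. That of MAPK9 had 13.4% in depleted and 13.7% in control cells with PMA, and 19.8% and 17.3% without PMA. The genes differed in this choice in every group, with more of the short form in MAPK8. No change with depletion was called, and the highest posterior probability for these acceptors in the authors' deposited tables was 0.0534.

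**Figure D3:**
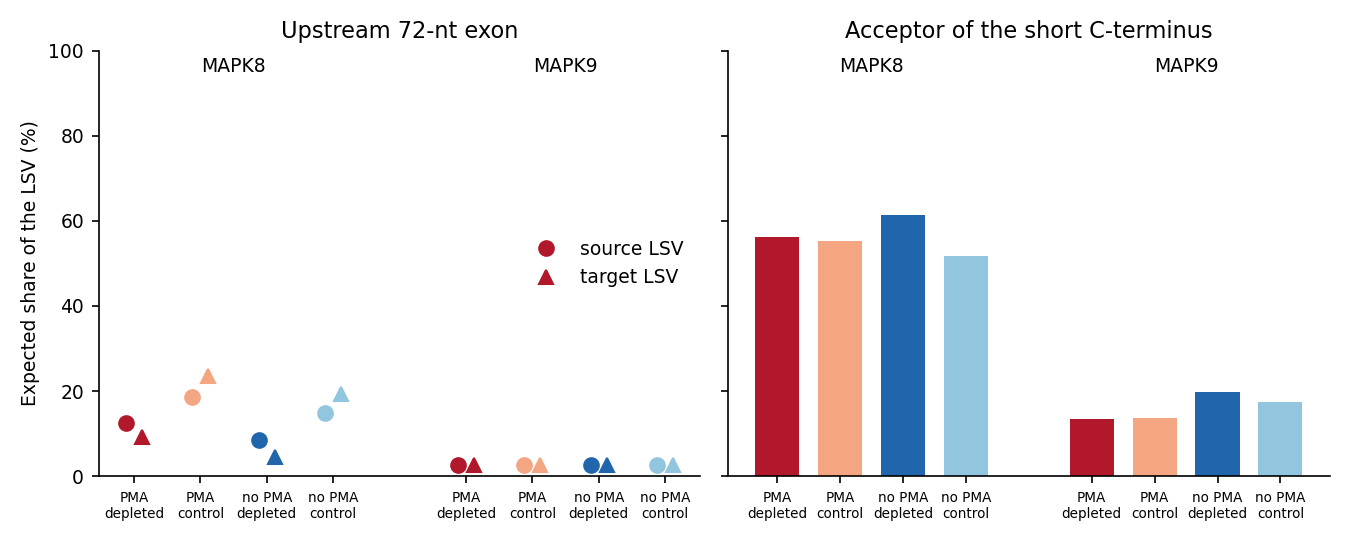
Left, expected share (percent) of the upstream 72-nt exon by the source LSV (circles) and target LSV (triangles) in MAPK8 and MAPK9. Right, expected share of the last-exon acceptor that gives the short JNK protein. Groups run from PMA-treated depleted to unstimulated control cells, as pooled by the authors. MAPK8 depleted cells sit below control cells on the left, and MAPK9 sits at the lower bound of 2.5%.

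The 5′ exons of MAPK8, noncoding in GENCODE 29, also varied. The junction into a 194-nt exon had 75.7% in depleted and 56.7% in control cells with PMA, and 45.5% and 48.1% without PMA. Cells with PMA were above those without, and most so in depleted cells. The depletion change with PMA reached a posterior probability of 0.440 by the authors' deposited table. The junction that leaves this exon for the first coding exon had 60% in depleted and 67.6% in control cells with PMA, and 56.7% and 71.7% without PMA, by the source LSV. By the target LSV it had 51% in depleted and 58.9% in control cells with PMA, and 45.7% and 44.6% without PMA. Depleted cells were lower with PMA in both LSVs, the LSVs differed in direction without PMA, and nothing was called.

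In MAPK9 a 241-nt exon near the 5′ end, exon 2 of MAPK9-205, had 9.3% in depleted and 24.0% in control cells with PMA by the source LSV, and 8.6% and 19.7% by the target LSV. Without PMA it had 14.7% in depleted and 11.8% in control cells by the source LSV, and 12.6% and 15% by the target LSV. Depleted cells were lower with PMA in both LSVs, and the LSVs differed in direction without PMA. The highest posterior probability with PMA was 0.241 in the authors' deposited table. A 93-nt noncoding exon of MAPK9 had 14.6% in depleted and 2.6% in control cells with PMA by the source LSV, but 18.0% and 19.6% by the target LSV, so the LSVs gave no common direction. Of the 14 LSVs of MAPK9, 11 spanned under 10 points, beside 67365 of 87517 over all genes.

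**Figure D4:**
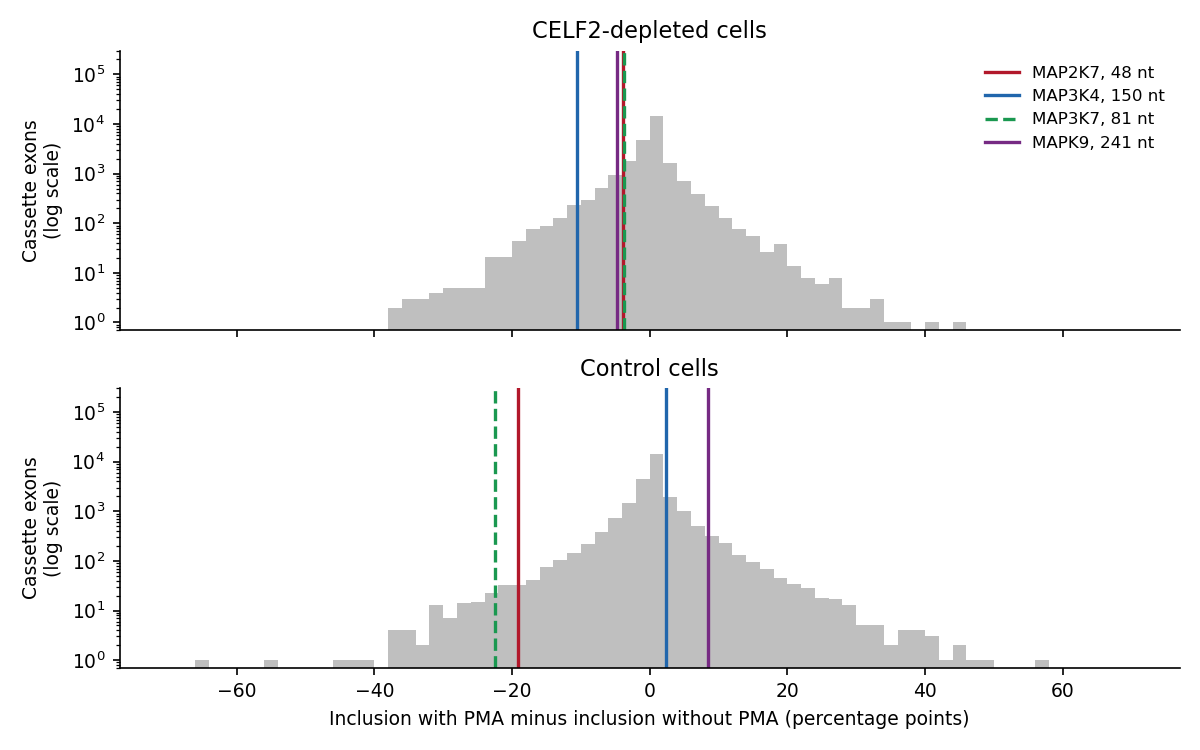
Difference of inclusion between PMA-treated and unstimulated cells (horizontal axis, percentage points) over 26783 exons, in depleted cells (top) and control cells (bottom), with counts on a log axis. Lines mark 4 exons of the 6 genes. In control cells the MAP2K7 exon lies at -19.1 and the MAP3K7 exon at -22.5 points, and in depleted cells at -3.85 and -3.70 points, where their lines nearly coincide.

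Other genes of the pathway were read from a list of 55 upstream kinases, scaffolds and adaptors, phosphatases and inhibitors, JNK targets and the third JNK gene, MAPK10. With PMA 45 of them had an LSV, and 6 of these (13.3%) had a called one, beside 10.6% of all genes. Without PMA 41 had an LSV and 2 (4.88%) had a called one, beside 6.20% of all genes. These shares are near those of all genes. By role, calls with PMA fell on 3 of 18 upstream kinases and 3 of 15 scaffolds and adaptors, and on none of 6 targets or 6 phosphatases and inhibitors. Without PMA they fell on 1 of 16 scaffolds and adaptors and 1 of 5 targets, and on none of 18 upstream kinases. In the p38 branch 1 of 5 genes was called with PMA and none of 5 without.

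The scaffold gene MALT1, part of the complex that links the antigen receptor to NF-kappaB and JNK, was the only gene of this list called in both states. Its 33-nt exon at chr18:56378153-56378185 was included at 91.2% in depleted and 42.3% in control cells with PMA, and at 69.5% and 37.4% without PMA, averaged over both LSVs. The highest posterior probability in the authors' deposited tables rounded to 1 with PMA and was 0.979 without. In MAPK8IP3, a JNK scaffold, 1 junction of an LSV had 57.8% in depleted and 9.1% in control cells with PMA, and this LSV was listed with PMA alone. SPAG9, another JNK scaffold, had a junction with 97.4% in depleted and 70.2% in control cells with PMA. Without PMA the same junction had 87.2% in depleted and 94.1% in control cells, the other direction, without a call.

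Among the upstream kinases called with PMA, a junction of MAP3K10 had 79.1% in depleted and 48.9% in control cells with PMA, and 92.3% and 71.7% without PMA. A junction of MAP4K5 had 27.6% in depleted and 67.4% in control cells with PMA, and 49% and 52.7% without PMA. A junction of TAOK3 had 7.4% in depleted and 32.3% in control cells with PMA, and 7.3% and 31.7% without PMA. In these 3 genes depleted and control cells lay in the same order in both states, and no change without PMA was called. The highest posterior probability without PMA was 0.949 in TAOK3, just under the limit of 0.95. It was 0.806 in MAP3K10 and 0.00324 in MAP4K5. ATF2, a transcription factor that JNK phosphorylates, was called without PMA, where a junction had 14.8% in depleted and 40.9% in control cells. With PMA this junction had 29.9% in depleted and 32.2% in control cells. MAPK12, a p38 kinase, had a called junction with 86.5% in depleted and 56.4% in control cells with PMA. Without PMA it had 83.8% in depleted and 87% in control cells, the other direction, without a call. The called LSVs of MAPK8IP3, SPAG9, MAP3K10 and TAOK3 were marked by the authors as holding de novo junctions. Those of MALT1, MAP4K5, ATF2 and MAPK12 were not.

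The exons whose inclusion over the 4 groups was most like that of the MAP2K7 exon were chosen by Euclidean distance, 1 exon per gene. The nearest was a 90-nt exon of GIT2 at a distance of 3.72 points, with 78.7% in depleted and 32.0% in control cells with PMA, and 83.6% and 55.8% without PMA. Next came a 75-nt exon of TEX30 at 9.49 points and a 126-nt exon of PTK2B at 9.67 points. A 78-nt exon of RPRD2 followed at 13.9 points, and a 27-nt exon of DIAPH1 at 15 points. The DIAPH1 exon had 38.5% in control cells with PMA and 39.1% without, where the MAP2K7 exon had 33.9% and 53.0%. Whether these exons differ in their response to PMA was not tested. Without the limit on the gap between source and target shares, the nearest 5 also held exons of SMG1P3 at 8.68 points and MFF at 12.1 points in place of RPRD2 and DIAPH1.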

How the data were processed

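Per the labels' protocols, libraries of polyadenylated RNA were made with a TruSeq stranded kit. STAR 2.5.1b and hg19 are named in the submitters' processing notes. The column names and links are those of VOILA, the output of MAJIQ. Its version, its annotation and any filter on reads were not given in the sources used here. For each junction the authors deposited the expected share (PSI) in each group, the expected change and the posterior probability that the change reaches 0.20, per the file headers. The expected change can differ from the difference of the shares, and lay closer to 0 in many LSVs without a call. No per-sample column was left unused (0).

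LSVs were called at a posterior probability of 0.95. Source or target was read from the LSV type, since the identifier's wording reverses on the minus strand. Inclusion was the mean of both LSVs of an exon. Exons were matched to GENCODE 29 by exon and intron lengths in the same gene ID, and sequences came from its transcripts. Given in full were called LSVs, else the 3 that varied most by the junction that varied most, and known alternative exons. The members and lists were chosen with earlier results of these data known. The limit of 20 points between source and target shares was set after seeing the data. The code was tested on simulated data. UGU-rich motifs near exons were not analysed here, for lack of an hg19 genome. Python 3 with numpy and pandas was used.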

Additional observations from a re-analysis of the deposited data

Results flagged for a closer look

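The 81-nt exon of MAP3K7 was listed because the depletion difference of shares had opposite signs in the 2 states in both of its LSVs, each by at least 5 points. The authors' expected changes with PMA were under 5 points, at 3.98 by the source LSV and 2.72 by the target LSV. Depleted minus control inclusion was 6.95 points with PMA and -11.9 points without PMA, so the differences lay 18.8 points apart. The difference between the states was not tested, since the tables were quantified separately, and neither change was called.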

How the results depend on the processing

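No paired analysis was possible because the authors pooled the libraries of each group into 1 value, and for the same reason no library could be left out. For the 6 genes the count of called LSVs was 4 with PMA and 2 without. It came to 7 and 6 where an expected change of at least 10 points was used instead of the posterior probability, a rule that 9.33% of all LSVs met with PMA and 6.29% without, so these counts are near the share of all LSVs. Without PMA it was 1 at a posterior probability of 0.99 (0.606% of all LSVs) and 1 among 42 LSVs of 2 junctions (0.594%), in both cases in MAP2K7. Under the other alternatives the counts stayed at 4 with PMA and 2 without, while the shares of all LSVs moved. At a posterior probability of 0.90 these shares were 2.33% with PMA and 1.32% without. At an expected change of 20 points they were 3.84% and 2.4%. For LSVs without de novo junctions, of which the 6 genes held 32 in each state, they were 1.76% and 0.949%. For LSVs listed in both states, of which the 6 genes held 70, they were 1.72% and 0.9%. With PMA the count was 4 at a posterior probability of 0.99 (1.18%) and 3 among 42 LSVs of 2 junctions (1.13%). For the other pathway genes, the 6 of 45 genes called with PMA became 12 at an expected change of 20 points (19.9% of all genes), 18 at 10 points (37.5%), 2 of 37 without de novo junctions (4.99%) and 3 of 43 with LSVs of 2 junctions (4.58%). The 2 of 41 called without PMA became 5 at a posterior probability of 0.90 (8.16%), 0 at 0.99 (3.84%), 9 at an expected change of 20 points (13.7%) and 16 at 10 points (29.5%). These counts moved in the same direction as the shares of all genes. Without PMA the count stayed at 2 of 33 without de novo junctions and at 2 of 39 with LSVs of 2 junctions. The shares of all genes were lower there, at 2.86% and 2.49%. The depletion difference of the MAP2K7 exon was 41.2 points by the source LSV alone and 47.8 by the target LSV alone with PMA, and 23.7 and 34.8 without PMA. Its PMA difference in control cells was -21.9 points by the source LSV and -16.3 by the target LSV. Each kept its sign. By the authors' expected change in place of the difference of shares the depletion difference was 45.7 points with PMA and 30 without, and in depleted cells the PMA difference was -4.40 by the source LSV and -3.30 by the target LSV. Read depth per LSV is unknown, so no limit from depth could be given.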
